A study of Mus musculus with 4 samples.

Results

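The proteasome genes of Foxp3-deleted and wild-type regulatory T (Treg) cells are described here. Members were all probe sets whose single gene symbol in the platform annotation begins with Psma, Psmb, Psmc, Psmd, Psme or Psmg, which gave 99 of 45101 probe sets and 48 of 18193 named genes. RNA was measured on 4 mouse arrays. The samples titled Foxp3delta (2 arrays, called deleted here) were T cells with a loxP-flanked Foxp3 gene, and those titled Foxp3+ (2 arrays, called wild type) had an unmodified Foxp3 gene. The series design calls them peripheral Treg cells treated with Cre recombinase. Both had received HR-MMPCreGFP, both were CD4+YFP+Ly5.2+ cells in which YFP reports exposure to Cre, and both were taken 6 weeks after adoptive transfer. The labels give no age, sex or strain and do not say whether replicates were separate animals, so p-values measure only the spread between these arrays, which may be technical.

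The proteasome is the barrel-shaped protease that degrades ubiquitin-tagged proteins. Its 20S core is built from rings of alpha subunits, which form the gate, and beta subunits, of which Psmb5, Psmb6 and Psmb7 encode the catalytic ones. The 19S regulatory particle, made of a base with ATPases and a lid, binds and unfolds substrates, and the PA28 activator (Psme1 and Psme2) can cap the core instead. In lymphocytes, and in other cells after interferon, the catalytic subunits are replaced by Psmb8, Psmb9 and Psmb10 to form the immunoproteasome, which favours peptides that bind MHC class I. Whether loss of Foxp3 is accompanied by another proteasome make-up is the comparison made here.

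No proteasome gene differed between the groups past the threshold. Of the 46 members bright enough to be tested (log2 intensity averaging 4 or more), 0 had an adjusted p below 0.05 in limma, against 0.0% of all 8629 genes, and 1 had an unadjusted p below 0.05, against 9.95% of all genes. The 46 differences, deleted minus wild type on the log2 scale, ran from -1.12 (Psmd9) to 1.37 (Psma4), with 22 above 0, 24 below 0 and a median of -0.013, beside a median of -0.018 over all genes tested. Leaving out 1 array moved the members' median between -0.134 (without deleted replicate 1) and 0.144 (without deleted replicate 2). Foxp3 itself was at log2 intensities of 8.77 and 8.75 in deleted and 11.40 and 11.23 in wild-type arrays. Its difference was -2.55 (SE 0.28, adjusted p = 0.0749 in limma). Under 4 of the alternative settings, which called between 27 and 60 genes, Foxp3 passed the threshold and members called stayed at 0. With so few genes called in all, a count of 0 among 46 members says little about the members. Of the 48 genes Psma8, the testis form of an alpha subunit, and Psmb11, the thymus-specific catalytic subunit, were too dim to be tested, with log2 intensities of 2.73 to 2.81 and of 2.59 to 2.63. Psme2, the partner of Psme1 in PA28, has a probe set annotated with a further gene as well and was therefore no member.

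The sequences around the start sites were searched for the letters of known control elements of proteasome genes. The windows below, each 300 bases long (250 before and 50 after the annotated start, RefSeq, build GRCm38.p6, written 5′ to 3′ on the gene's strand), are shown for both pairs of an immunoproteasome subunit and its constitutive counterpart that have a window, for Psme1, and for the 2 members with the highest differences and a window (Psmg4 and Psma4). Capitals mark a match, on either strand, to GAAANNGAAA (the core of the interferon-stimulated response element), to TGANNNNGC (bound by CNC-bZIP factors such as Nfe2l1, which raises proteasome genes when the proteasome is inhibited) or to CCAAT.
Psmb8, chr17:34197945-34198244, plus strand: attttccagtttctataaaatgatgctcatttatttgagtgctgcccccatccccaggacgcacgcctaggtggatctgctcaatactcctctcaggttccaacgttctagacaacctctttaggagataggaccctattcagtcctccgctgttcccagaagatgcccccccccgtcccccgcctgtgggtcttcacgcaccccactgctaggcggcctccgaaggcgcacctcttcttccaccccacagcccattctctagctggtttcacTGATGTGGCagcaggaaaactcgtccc
Psmb5, chr14:54617946-54618245, minus strand: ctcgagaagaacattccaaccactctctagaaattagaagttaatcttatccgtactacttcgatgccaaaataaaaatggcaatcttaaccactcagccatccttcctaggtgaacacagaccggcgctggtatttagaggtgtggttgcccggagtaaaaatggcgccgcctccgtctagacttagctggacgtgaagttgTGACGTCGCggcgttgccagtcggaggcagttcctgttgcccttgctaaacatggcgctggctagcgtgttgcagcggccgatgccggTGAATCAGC
Psmb9, chr17:34187281-34187580, minus strand: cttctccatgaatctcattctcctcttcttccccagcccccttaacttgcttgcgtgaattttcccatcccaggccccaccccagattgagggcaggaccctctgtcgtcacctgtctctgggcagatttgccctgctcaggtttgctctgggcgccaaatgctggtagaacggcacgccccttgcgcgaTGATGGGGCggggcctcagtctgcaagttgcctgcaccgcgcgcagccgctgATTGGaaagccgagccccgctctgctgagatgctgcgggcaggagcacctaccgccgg
Psmb6, chr11:70525107-70525406, plus strand: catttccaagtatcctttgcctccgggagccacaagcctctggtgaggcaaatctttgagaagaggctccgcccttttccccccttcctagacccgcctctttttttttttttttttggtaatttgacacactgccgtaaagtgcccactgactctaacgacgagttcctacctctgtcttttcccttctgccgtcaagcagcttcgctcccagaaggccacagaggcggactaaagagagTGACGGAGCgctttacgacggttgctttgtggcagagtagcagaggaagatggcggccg
Psme1, chr14:55578244-55578543, plus strand: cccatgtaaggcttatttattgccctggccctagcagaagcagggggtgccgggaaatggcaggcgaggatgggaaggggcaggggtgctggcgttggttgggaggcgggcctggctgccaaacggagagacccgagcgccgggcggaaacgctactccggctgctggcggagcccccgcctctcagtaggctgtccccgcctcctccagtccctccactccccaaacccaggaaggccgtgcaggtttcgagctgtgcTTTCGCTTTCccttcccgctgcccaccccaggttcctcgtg
Psmg4, chr13:34162714-34163013, plus strand: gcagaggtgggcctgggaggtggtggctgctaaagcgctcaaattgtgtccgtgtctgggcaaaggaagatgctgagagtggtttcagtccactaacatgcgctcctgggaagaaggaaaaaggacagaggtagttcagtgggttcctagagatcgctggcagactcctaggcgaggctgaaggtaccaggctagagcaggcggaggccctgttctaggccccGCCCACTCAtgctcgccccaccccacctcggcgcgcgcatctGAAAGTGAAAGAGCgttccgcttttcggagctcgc
Psma4, chr9:54950609-54950908, plus strand: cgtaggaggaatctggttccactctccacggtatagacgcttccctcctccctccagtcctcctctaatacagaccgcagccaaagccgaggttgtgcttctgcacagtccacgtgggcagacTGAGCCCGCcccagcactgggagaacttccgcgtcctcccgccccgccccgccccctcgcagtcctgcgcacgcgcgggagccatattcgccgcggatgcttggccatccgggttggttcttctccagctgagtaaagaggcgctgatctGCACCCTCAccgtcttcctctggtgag

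A window was found for 39 of the 46 tested members. GAAANNGAAA occurred in 5 of their 42 windows (11.9%), against 3.44% of all 32851 windows, in Psmb3, Psmd4, Psmd9, Psme1 and Psmg4. TGANNNNGC occurred in 24 windows (57.1%, against 41.3% of all) and CCAAT in 15 (35.7%, against 37.4%). In Psmg4 the interferon-element match overlaps a TGANNNNGC match. These matches are descriptions of letters and not of binding. The 5 genes with GAAANNGAAA had differences of -0.014 (Psmb3), 0.22 (Psmd4), -1.12 (Psmd9), -0.12 (Psme1) and 1.17 (Psmg4), so they did not lie on one side of 0.

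The immunoproteasome was not called changed. Psmb8, which takes the place of Psmb5, was at log2 intensities of 12.14 and 11.25 in deleted and 11.27 and 11.47 in wild-type arrays, a difference of 0.32 (SE 0.36, adjusted p = 0.831 in limma). Only deleted replicate 1 stood above the rest, and without it the difference was -0.12. Psmb9, which takes the place of Psmb6, was at 10.20 and 9.96 against 9.58 and 9.96, a difference of 0.31 (SE 0.31, adjusted p = 0.812 in limma). Deleted replicate 2 and wild-type replicate 2 were nearly equal, so the groups met, and the difference ran from 0.116 without wild-type replicate 1 to 0.493 without wild-type replicate 2. Psmb10, which takes the place of Psmb7, was at 10.71 and 10.14 against 10.74 and 10.35, with the groups interleaved and a difference of -0.12 (95% interval -0.96 to 0.72). That difference was 0.16 without deleted replicate 2 and 0.07 without wild-type replicate 1. Psme1, the alpha subunit of PA28, was at 10.82 and 10.18 against 10.65 and 10.59, where both wild-type arrays fell between the deleted ones. Its difference of -0.12 (95% interval -0.93 to 0.70) was 0.20 without deleted replicate 2. Over these 4 genes the median difference was 0.09, but it was -0.263 without deleted replicate 1, 0.313 without deleted replicate 2 and -0.119 with the mean over each gene's probe sets. The groups overlapped in all 4 genes, whereas over all genes tested both deleted arrays were above both wild-type arrays in 17.7% and below both in 22.0%. For 2 of the 4 (Psmb10 and Psme1) the interval lay between -1 and 1, that is, within a 2-fold change either way, against 16.6% of all genes. Bright genes get narrower intervals in this fit, and the share over all genes was not matched for intensity.

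Psmb8 has a second probe set that gave the other sign. It was at log2 intensities of 8.52 and 8.32 in deleted and 9.02 and 8.95 in wild-type arrays, a difference of -0.57 (SE 0.31, adjusted p = 0.661 in limma over all probe sets), so on this probe set both deleted arrays were below both wild-type arrays.

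**Figure D1:**
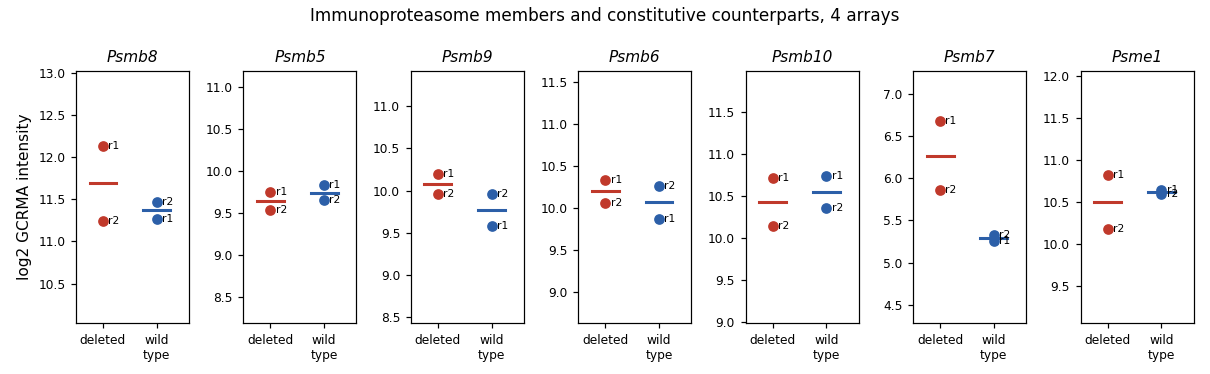
Log2 GCRMA intensity (vertical axis, each panel 3 log2 units high) of 4 immunoproteasome members and 3 constitutive counterparts; points are arrays (r1 and r2 are the replicates), horizontal lines group means of 2 arrays. Psmb7 is the one panel where both deleted arrays (6.68 and 5.86) lie above both wild-type arrays (5.26 and 5.32).

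Among the constitutive catalytic subunits 1 of 3 separated the groups, with the deleted arrays above, as 17.7% of all genes tested did (22.0% did so below). Psmb7, the trypsin-like subunit, was at log2 intensities of 6.68 and 5.86 in deleted and 5.26 and 5.32 in wild-type arrays, a difference of 0.98 (SE 0.41, 95% interval -0.06 to 2.02, adjusted p = 0.539 in limma). Deleted replicate 1 was the high array, and without it the difference was 0.57. Psmb5, the chymotrypsin-like subunit and target of bortezomib, was at 9.75 and 9.54 against 9.84 and 9.65, with overlapping groups and a difference of -0.10 (0.004 without deleted replicate 2). Psmb6, the caspase-like subunit, was at 10.33 and 10.07 against 9.88 and 10.26, again with overlap and a difference of 0.13 (-0.06 without wild-type replicate 1, and -0.001 without deleted replicate 1). Within each array, the log2 ratio of Psmb10 to Psmb7 changed by -1.10 (deleted minus wild type), without overlap. This combines -0.12 for Psmb10 with 0.98 for Psmb7, whose only probe set was dim (38.3 to 102.6 on the linear scale). Such ratios were not computed for other genes. With 2 arrays against 2, an exact permutation test cannot give a two-sided p below 0.333, so these ratios were not tested. The same ratio changed by 0.17 for Psmb9 to Psmb6, without overlap, and by 0.42 for Psmb8 to Psmb5, with overlap, so the 3 exchange pairs did not share a direction.

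The alpha genes varied most between replicates among the role groups, with a median gap between the arrays of a group of 0.89 in deleted and 0.96 in wild-type cells (log2). Psma4 was at log2 intensities of 9.32 and 8.42 in deleted and 6.79 and 8.20 in wild-type arrays, the highest difference among the members (1.37, SE 0.61, adjusted p = 0.562 in limma). The groups did not overlap, although deleted replicate 2 and wild-type replicate 2 were close, and the difference was 0.67 without wild-type replicate 1 and 2.08 without wild-type replicate 2. Psma1 was at 11.05 and 9.75 against 8.28 and 10.34, with overlap and a difference of 1.09 (SE 0.80), which fell to 0.06 without wild-type replicate 1 and was 2.12 without wild-type replicate 2. Psma7 was at 9.59 and 8.12 against 7.89 and 9.23, so each group held a high and a low array, and the groups differed by 0.30 (-0.44 without deleted replicate 1, -0.38 without wild-type replicate 1). The remaining alpha genes (Psma2, Psma3, Psma5 and Psma6) lay between -0.21 and 0.26. Of these Psma5 had both deleted arrays (11.36 and 11.12) below both wild-type arrays (11.43 and 11.46), by a mean of -0.21. Psma3 and Psma2 followed the array pattern of Psma7, with log2 intensities for Psma3 of 13.43 and 12.30 against 12.45 and 13.41.

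Deleted replicate 1 above replicate 2, together with wild-type replicate 2 above replicate 1, was seen in 6 of 7 alpha genes, in 21 of 46 members (45.7%) and in 33.2% of all genes tested. Median deviations from each gene's mean over the 4 arrays were 0.53 in deleted replicate 1, -0.16 in deleted replicate 2, -0.52 in wild-type replicate 1 and 0.25 in wild-type replicate 2 for the alpha genes. For all genes tested these medians lay between -0.049 and 0.014. The labels name no batch that this pattern could be set against, and what lies behind it was not tested.

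**Figure D2:**
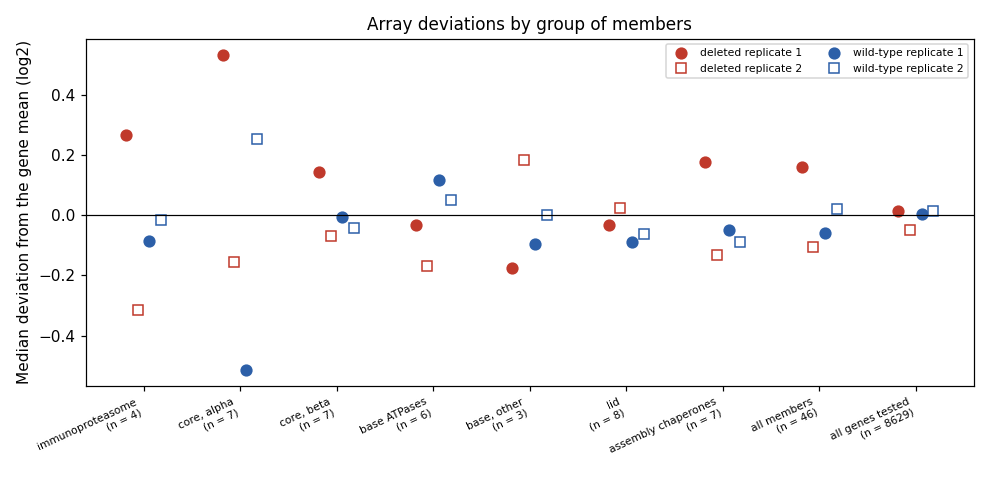
Median over genes of the deviation of each array from the gene's mean over 4 arrays (vertical axis, log2), by group of members (horizontal axis, with the number of genes); red is deleted, blue wild type, filled circles replicate 1 and open squares replicate 2. The alpha genes have deleted replicate 1 (0.53) and wild-type replicate 2 (0.25) on top and wild-type replicate 1 (-0.52) at the bottom, while all genes tested lie near 0.

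Beta subunits other than Psmb7 had differences between -0.17 and 0.15 on the probe sets used for each gene. Psmb4 was at log2 intensities of 13.23 and 13.32 in deleted and 13.49 and 13.41 in wild-type arrays, without overlap and with a difference of -0.17 (95% interval -0.58 to 0.23). Psmb1 was at 10.95 and 10.07 against 10.37 and 10.36, where the wild-type arrays fell between the deleted ones and the difference was 0.15 (-0.30 without deleted replicate 1). Psmb2 and Psmb3 differed by 0.072 and -0.014. A second probe set of Psmb3 was at 9.15 and 8.96 against 8.77 and 8.30, without overlap and with a difference of 0.524. A second probe set of Psmb4 differed by 0.365, with overlap. The 14 tested core genes together had a median difference of 0.10 (0.38 without deleted replicate 2, -0.032 without deleted replicate 1 and -0.018 without wild-type replicate 1), 8 above 0 and 6 below. Of these 14, 7 had an interval between -1 and 1, against 16.6% of all genes, not matched for intensity.

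In the regulatory particle 7 of 17 genes were above 0 and 10 below, with a median of -0.071. That median ran from -0.198 without deleted replicate 1 to -0.028 without wild-type replicate 2. It turned to 0.062 with the mean over probe sets, those below the filter included. Of 6 base ATPase genes 5 were below 0, as were 4476 of all 8629 genes tested. Psmc2 was at log2 intensities of 12.78 and 12.84 in deleted and 13.30 and 13.07 in wild-type arrays, a difference of -0.38 (SE 0.18, 95% interval -0.84 to 0.08, adjusted p = 0.627 in limma), which was -0.178 with the mean over probe sets. Psmc1 was at 8.40 and 8.33 against 8.97 and 8.57, a difference of -0.41 (SE 0.34), which was -0.204 without wild-type replicate 1 and -0.216 with the mean over probe sets. The only other probe set of Psmc1 was near the floor (log2 intensity averaging 2.405), and the mean for Psmc2 also took in a probe set averaging 2.955. For both genes the deleted arrays were close together (0.059 and 0.064 apart) and lay below both wild-type arrays. Psmc5 ran the other way, at 6.56 and 6.06 against 5.45 and 5.78, without overlap and with a difference of 0.70 (SE 0.38, adjusted p = 0.662 in limma) that fell to 0.448 without deleted replicate 1. Psmc3, Psmc4 and Psmc6 lay between -0.29 and -0.04, each with overlap on the probe set used. A second probe set of Psmc4 was at 8.002 and 7.994 against 7.436 and 7.729, without overlap and with a difference of 0.415.

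Other base subunits, which hold the particle together and bind ubiquitin, all overlapped. Psmd4, a ubiquitin receptor, was at log2 intensities of 11.42 and 10.17 in deleted and 10.53 and 10.63 in wild-type arrays, a difference of 0.22 that was -0.41 without deleted replicate 1. The scaffold subunit Psmd1 was at 8.30 and 8.75 against 8.38 and 8.48, a difference of 0.095 (-0.13 without deleted replicate 2). Psmd2, the other scaffold subunit, was at 8.03 and 8.52 against 8.35 and 8.44, a difference of -0.12 (0.125 without deleted replicate 1). In both scaffold genes the wild-type arrays fell between the deleted ones. In the lid, Psmd8 was at 8.91 and 8.72 against 8.27 and 8.35, a difference of 0.50 (SE 0.32), and the deubiquitinase gene Psmd14, whose product removes ubiquitin from substrates, was at 10.66 and 10.23 against 10.88 and 10.88, a difference of -0.44 (SE 0.28) that was -0.226 without deleted replicate 2. Psmd7, the partner of Psmd14, was at 4.86 and 5.07 against 5.66 and 5.12, a difference of -0.43. That difference was -0.159 without wild-type replicate 1 and -0.191 with the mean over probe sets, the dimmest of which averaged 2.709. None of these 3 overlapped between groups, and adjusted p was 0.711, 0.711 and 0.769 in limma. In Psmd7 the gap between the wild-type arrays (0.535) was larger than the difference between the groups. Of 8 lid genes 2 lay above without overlap and 2 below, against 17.7% and 22.0% of all genes. Psmd11, also without overlap, differed by 0.37, and Psmd3, Psmd6, Psmd12 and Psmd13 lay between -0.33 and 0.42 with overlap. A second probe set of Psmd6 was at 7.728 and 7.185 against 6.293 and 6.854, without overlap and with a difference of 0.883.

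**Figure D3:**
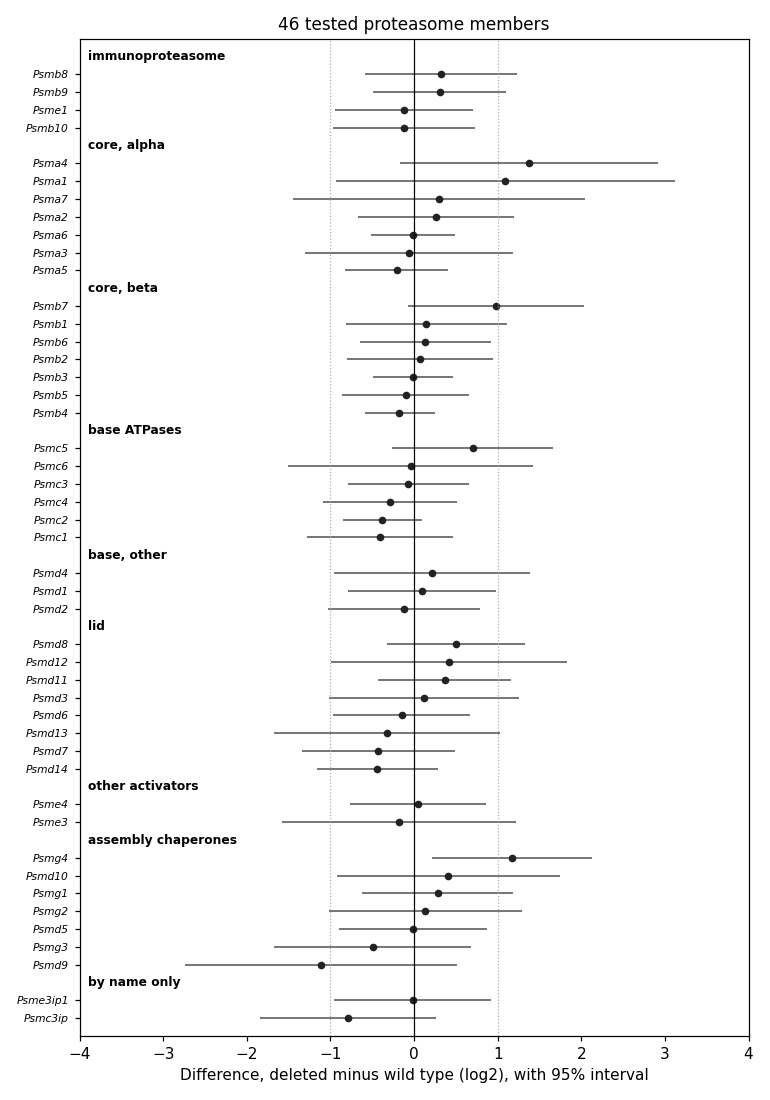
Differences between groups (horizontal axis, deleted minus wild type, log2) for the 46 tested members, by role; points are estimates and bars 95% intervals from limma with 2 arrays per group, dotted lines mark a 2-fold change. Psmg4 is the one member whose interval (0.23 to 2.12) leaves out 0, before adjustment.

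The assembly chaperones held the member with the smallest p. Psmg4, one of the chaperones that build the alpha ring, was at log2 intensities of 5.91 and 5.54 in deleted and 4.27 and 4.84 in wild-type arrays, which is 60.0 and 46.6 against 19.3 and 28.6 on the linear scale. Both deleted arrays were higher, and the difference of 1.17 (SE 0.37, unadjusted p = 0.0238) had an adjusted p = 0.397 in limma. Its intensities were low, and with a pseudocount of 16 the difference was 0.80, and with the mean over its probe sets, one of them below a log2 intensity of 4, 0.566. Psmd9, a chaperone of the base, was at 5.48 and 6.69 against 7.85 and 6.55, with overlap and a difference of -1.12 (SE 0.64), which ran from -0.469 without wild-type replicate 1 to -1.77 without wild-type replicate 2, while its other probe set above the filter read 5.14 and 4.97 against 3.38 and 4.60, a difference of 1.06. Psmg3, the partner of Psmg4, was at 7.68 and 6.83 against 7.45 and 8.05, with overlap and a difference of -0.50 (SE 0.46), which was -0.073 without deleted replicate 2, -0.197 without wild-type replicate 2 and -0.919 without deleted replicate 1. The core chaperones Psmg1 and Psmg2 and the base chaperones Psmd5 and Psmd10 lay between -0.014 and 0.41.

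On the probe set used for each gene, the other activators of the core overlapped between groups. Psme3, the nuclear PA28 gamma, was at log2 intensities of 8.11 and 7.05 in deleted and 7.28 and 8.24 in wild-type arrays, a difference of -0.18 that was 0.35 without deleted replicate 2 and 0.30 without wild-type replicate 2. Psme4, which encodes the activator PA200, was at 9.60 and 9.64 against 9.36 and 9.79, a difference of 0.046 (-0.17 without wild-type replicate 1, and -0.010 after quantile normalization). A pair of members carry the name without being subunits. Psmc3ip, a cofactor of meiotic recombination, was at 6.48 and 7.18 against 7.44 and 7.79, without overlap and with a difference of -0.79 (SE 0.41, adjusted p = 0.652 in limma). It was -0.435 without deleted replicate 1 and -0.463 with the mean over probe sets, the dimmer of which averaged a log2 intensity of 3.814. Psme3ip1, which binds PA28 gamma, was at 6.90 and 7.06 against 7.22 and 6.77, where the deleted arrays fell between the wild-type ones, and differed by -0.017, and by 0.21 without wild-type replicate 1 and 0.065 without deleted replicate 1.

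Counted over all roles, both deleted arrays were above both wild-type arrays in 7 of 46 members (15.2%), against 17.7% of all genes tested. These were Psma4, Psmb7, Psmc5, Psmd8, Psmd11, Psmg1 and Psmg4. Both were below in 7 (15.2%), against 22.0% of all genes, and these were Psma5, Psmb4, Psmc1, Psmc2, Psmd7, Psmd14 and Psmc3ip. A difference of at least 1 in either direction was found in 4 members (8.7%, against 11.9%). The gap between the arrays of one group was larger than the difference between the groups in 37 members (80.4%), against 74.9% of all genes. The shares that separated the groups were thus near or below those of all genes. For 16 members (34.8%, against 16.6% of all genes) the 95% interval lay between -1 and 1. Interval width depends on intensity as well as on the arrays, and the 2 shares were not matched for intensity. They were Psma5, Psma6, Psmb2, Psmb3, Psmb4, Psmb5, Psmb6, Psmb10, Psmc2, Psmc3, Psmd1, Psmd5, Psmd6, Psme1, Psme4 and Psme3ip1, and for the other 30 a 2-fold change in at least one direction was inside the interval.

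**Figure D4:**
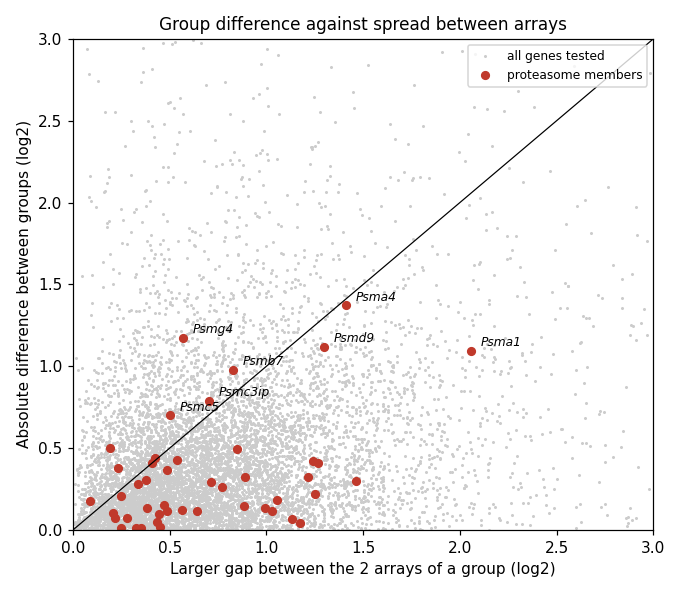
Absolute difference between groups (vertical axis, log2) against the larger gap between the 2 arrays of a group (horizontal axis, log2); red points are the 46 members, grey points all genes tested, and the line marks equality. Most members (37 of 46) lie below the line; the axes end at 3, and 81 genes, none of them a member, lie beyond.

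Probe sets of the same gene often disagreed. Of 20 members with at least 2 probe sets above the filter, 11 (55.0%) had differences of both signs, against 47.1% of 3448 such genes overall. Psma1 ranged from -0.71 to 1.09, Psmd6 from -0.15 to 0.88, Psmc4 from -0.29 to 0.41 and Psmc6, with 3 probe sets below 0, from -1.24 to -0.04. In Psmd11 all 4 probe sets above the filter were above 0, from 0.22 to 0.88, and so were both of Psmd4, at 0.22 and 0.90. Positions of the probe sets on the transcripts were not used here.

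**Figure D5:**
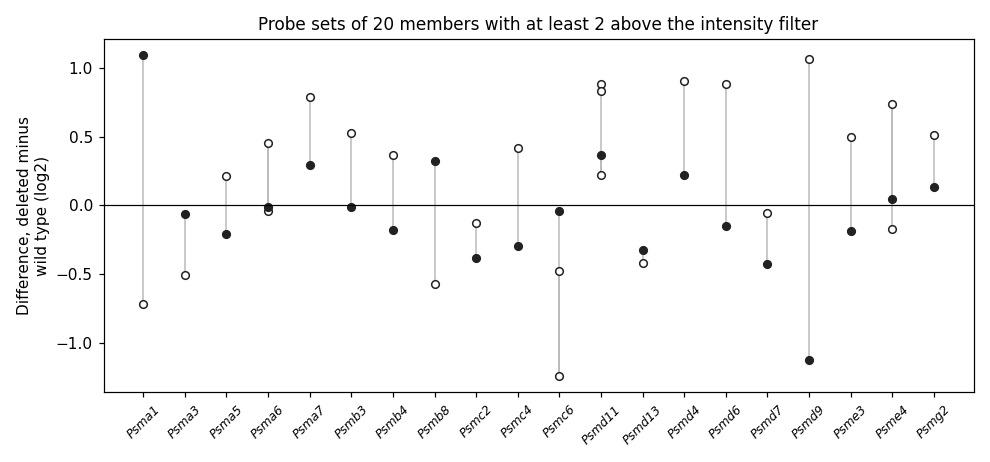
Differences between groups (vertical axis, deleted minus wild type, log2) for each probe set that averaged a log2 intensity of 4 or more, in the 20 members with 2 or more such probe sets; filled points are the brightest probe set, used for the gene, open points the others. Psmd9 (-1.12 and 1.06) and Psma1 (1.09 and -0.71) span the widest ranges.

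Genes that work with the proteasome were likewise not called changed. For the counts by sign below, 4153 of all 8629 genes tested were above 0 and 4476 below. Of 14 tested genes for other proteasome parts, shuttles and assembly factors, 10 were above 0 and 4 below (median 0.13), 2 of 14 without overlap above (against 17.7% of all genes) and 3 of 14 below (against 22.0%). The ubiquitin shuttle Rad23b differed by 1.15 (SE 0.46, adjusted p = 0.513 in limma), the shuttle Ubqln2 by 1.0 and the proteasome inhibitor gene Psmf1 by -0.96 (SE 0.42). Sem1, a small lid subunit with another name and chosen here after its values were seen, had the smallest p of this list, with a difference of -0.55 (SE 0.19, adjusted p = 0.432 in limma). Among 12 tested genes of MHC class I antigen processing 9 were above 0 and 3 below (median 0.17). Without overlap, 3 of 12 lay above and 0 of 12 below, against 17.7% and 22.0% of all genes. The chaperone Pdia3 differed by 1.68 (SE 0.67, adjusted p = 0.504 in limma), the trimming peptidase Erap1 by 0.48 and the peptide transporter subunit Tap2 by 0.48. Of 11 ubiquitin pathway genes 7 were above 0 and 4 below (median 0.19), with the conjugating enzymes Ube2s, Ube2d1 and Ube2n at 0.86, 0.57 and 0.52. In this list 5 of 11 lay above without overlap, against 17.7% of all genes, and 1 of 11 below, against 22.0%. Its lowest adjusted p was 0.642 in limma.

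Among 12 regulators of proteasome genes 6 were above and 6 below 0. Without overlap, 2 of 12 lay above and 3 of 12 below, against 17.7% and 22.0% of all genes. Irf8, an interferon regulatory factor, was at log2 intensities of 5.64 and 6.09 in deleted and 7.26 and 7.72 in wild-type arrays, a difference of -1.63 (SE 0.39, adjusted p = 0.281 in limma). Both deleted arrays were lower, although the test was not passed. Ngly1, which activates Nfe2l1, differed by 1.14 (SE 1.19), with one low wild-type array, and Stat3 by 0.74 (SE 0.40). Of these 49 related genes 0 passed an adjusted p of 0.05 in limma and 2 (Irf8 and Sem1) had an unadjusted p below 0.05, against 9.95% of all genes.

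Deleted replicate 1, the array with the highest Psmb8, also stood apart in other genes. Summed over Psmb8, Psmb9, Psmb10 and Psme1, intensity was 9156 in deleted replicate 1, 5713 in deleted replicate 2 and 6548 and 6675 in wild type. Of 8 myeloid markers 4 were bright enough to be tested. The summed intensity of all 8 was 2235 in deleted replicate 1 against 612 to 756 in the other arrays. In deleted replicate 1 Lyz2 was at log2 9.69 and Tyrobp at 8.64, against at most 7.24 and 6.93 elsewhere. Csf1r, the brightest of the 8 on average, was bright on every array, at 9.85 and 8.93 in deleted and 9.06 and 8.30 in wild type. Itgam and Cd14 were near the floor on all arrays (at most 2.84 and 2.80). Of 16 cell division genes 13 had a lower mean in deleted cells (median -0.27), and 2 were lower without overlap, against 22.0% of all genes. Their summed intensity was 15380 in deleted replicate 1, 39290 in deleted replicate 2 and 30790 and 28490 in wild type. The deleted arrays were thus the lowest and the highest. In all 16 genes the gap between the arrays of a group exceeded the group difference, against 74.9% of all genes. Their largest differences were 1.296 (SE 0.854) for Birc5, which encodes survivin, -0.715 (SE 0.385) for Mcm4 of the replicative helicase and -0.682 (SE 0.636) for the ribonucleotide reductase subunit Rrm1, with adjusted p of 0.711, 0.662 and 0.79 in limma. Of 5 measured B cell markers 2 were bright enough to be tested. Cd79b, a part of the B cell receptor, was at log2 intensities of 4.04 and 4.94 in deleted and 6.58 and 6.49 in wild-type arrays, a difference of -2.04 (adjusted p = 0.22 in limma), and Cd22 was at 5.86 and 6.33 against 5.70 and 3.76. The defining markers Cd79a and Pax5 were at most 2.49 and Ms4a1 at most 4.12, and the summed intensity of the 5 was 97.13 and 133.4 against 175.6 and 127.5. Of 3 measured NK cell markers only Eomes, a transcription factor that T cells can also express, was tested, at 6.54 and 5.01 against 2.80 and 4.48 (adjusted p = 0.45 in limma), while Ncr1 was at most 2.39 and Klre1 at most 3.48. The summed intensity of these 3 was 109.5 and 43.75 against 20.78 and 35.59. The part of any of these genes in the proteasome values was not tested. All 7 measured T cell markers were at 7.15 or more on every array, 5 with a higher and 2 with a lower mean in deleted cells. Cd3e ran from 10.53 to 11.86. Cd4 had the highest difference of the 7 (1.562): the deleted replicates read 9.03 and 9.63, the wild-type replicates 8.38 and 7.15. Cd2 had the lowest (-0.905): the deleted replicates read 11.34 and 10.09, the wild-type replicates 11.44 and 11.80. The smallest adjusted p of the 7 was 0.411 in limma. Cd8a, Cd8b1 and the 5 measured dendritic cell markers were below 4. Fewer cells of a type cannot be told apart from less RNA per cell in such samples.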

How the data were processed

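Values were GCRMA intensities on a linear scale, 1 per probe set and array, which the authors deposited after GCRMA (version 1.1.3, as named in the submitters' processing notes); further settings are not given in the sources used. GCRMA corrects background by probe sequence, normalizes arrays together and summarises probes, so dim values sit near a floor. Intensities were converted to log2. Of 45101 probe sets, 34958 had 1 gene symbol; those with several (932) or none (9211) and 64 control probe sets were left out. The brightest probe set on average stood for each of 18193 genes, and the 8629 genes that averaged a log2 intensity of 4 or more were tested together in limma 3.58.1 (R 4.3.3, eBayes with trend, two-sided, Benjamini-Hochberg, threshold 0.05), on 2 residual and 3.3 prior degrees of freedom. The prior variance follows intensity, so bright genes get narrower intervals.

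Members and lists were chosen with earlier results of these data known. Lists are described by counts and medians, without a test. Values on every array are given for Foxp3, the immunoproteasome genes, their constitutive counterparts and, in each other role, up to 3 members with the largest difference; of each related list and of the cell division genes the 3 largest differences are named. The procedure was tested on simulated data. Alternatives covered a pseudocount, a floor, the filter, probe sets, scaling between arrays, the variance trend, a replicate block and leaving out each array. Promoter windows come from RefSeq (GRCm38.p6). Plots used Python 3.11.15, pandas 2.3.3 and matplotlib 3.10.9. Precision is limited by there being 2 arrays per group.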

Additional observations from a re-analysis of the deposited data

How the results depend on the processing

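The count of members past the threshold was 0 under all settings run. Over all genes it was 0 with the settings used, a pseudocount, the floor, no filter, no trend, single probe sets, the replicate block and each array left out, but 27 with the filter at 6, 39 with the mean over probe sets, 60 with arrays centred on the median and 35 after quantile normalization, when Foxp3 was among them (adjusted p = 0.0352, 0.0317, 0.0291 and 0.0433 in limma). Members with an unadjusted p below 0.05 numbered between 0 and 3 under the settings that test genes, the crossed block aside. With 1 array left out, where the lone array of a group is assumed to vary like the others, the median difference ran from -0.134 to 0.144 for all members, from -0.032 to 0.384 for the core, from -0.198 to -0.028 for the regulatory particle and from -0.263 to 0.313 for the immunoproteasome; the regulatory particle median was 0.062 with the mean over probe sets. The sign turned for 15 of 28 named members under at least one setting. With the mean over probe sets the differences were -0.122 for Psmb8, -0.06 for Psma1, 0.095 for Psmb4, -0.258 for Psmb1 and 0.079 for Psme3, and Psme4 was at -0.01 after quantile normalization. Leaving out 1 array gave ranges of Psmb8 -0.123 to 0.769, Psmb10 -0.404 to 0.161, Psme1 -0.438 to 0.203, Psmb5 -0.205 to 0.004, Psmb6 -0.058 to 0.324, Psma7 -0.436 to 1.028, Psmb1 -0.295 to 0.588, Psme3 -0.709 to 0.346, Psme4 -0.171 to 0.263, Psmd4 -0.406 to 0.843, Psmd2 -0.361 to 0.125, Psmd1 -0.128 to 0.318 and Psme3ip1 -0.242 to 0.208. The labels do not say whether same-numbered samples are paired, and they were not treated as pairs. Deviations of same-numbered arrays correlated at -0.298 over genes. The replicate block called 0 genes and 0 members, and the block with crossed numbers, chosen after seeing the data, called 0 and 0. All values rest on 2 arrays per group, and dim genes such as Psmg4 and Psmb7 shrink with a pseudocount.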
